A study of Bos taurus with 24 samples.

Results

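Transcription factors that steer fat cell formation were followed in differentiating bovine pre-adipocytes exposed to palmitic acid, oleic acid or both. The list holds the C/EBP family members CEBPA, CEBPB and CEBPD, the Krüppel-like factors KLF4, KLF5 and KLF15, the early B-cell factors EBF1 and EBF2, and the zinc finger proteins ZNF423 and GATA2. The genes were taken by name from the day 4 table and joined to the day 7 table by gene identifier. Of these 10 genes, 9 were found by name among the 27570 genes of each deposited table, and CEBPA was not analysed here.

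The cells were subcutaneous pre-adipocytes of 6 Holstein cows, differentiated in a medium that held 5 µM troglitazone, an agonist of PPARG, together with insulin and acetate. Isobutylmethylxanthine, which raises cyclic AMP, and dexamethasone, a glucocorticoid, were present in all groups for the first 48 h of induction. CON cultures received no added fatty acid, PA cultures received palmitic acid (saturated), OA cultures oleic acid (monounsaturated), and MIX cultures 60% palmitic and 40% oleic acid, each at 300 µM in total. At day 4 the cells came from cows 4, 5 and 6 and were exposed from induction onward, and at day 7 they came from cows 1, 2 and 3, whose exposure followed the 48 h induction phase. Each of the 8 groups held 3 RNA-seq libraries, 1 per cow, so the replicates are animals and every cow gave 1 library to each of the 4 treatments of its day. Day therefore cannot be told apart from the animals, the timing of the exposure or the separate normalisation of the tables, and levels were not tested between days.

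Fat cell formation runs as a cascade, worked out mainly in mouse cell lines. CEBPB and CEBPD respond within hours to cyclic AMP and glucocorticoid and switch on PPARG and CEBPA, which maintain the fat cell programme. KLF4 and KLF5 take part in the early steps around CEBPB and PPARG, KLF15 acts later, EBF1, EBF2 and ZNF423 mark commitment to the lineage, and GATA2 holds pre-adipocytes back.

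Libraries held 13509548 to 17071654 reads at day 4 and 14118798 to 24008811 at day 7. The 9 markers of adipocytes summed to 19.2 to 72.7 FPKM (reads scaled to gene length and library size, as deposited) per library at day 4 and 2.64 to 5.16 at day 7. Of these 9, 4 averaged at least 1 FPKM at day 4 and 1 did at day 7. FABP4 alone averaged 30.25 FPKM at day 4 and 0.405 at day 7. ADIPOQ averaged 0.0148 FPKM at day 4 and was at 0 in all day 7 libraries. The 14 markers of pre-adipocytes and fibroblasts summed to 7459 to 25449 FPKM and 13739 to 33807 FPKM, although DLK1 was at 0 throughout. Lists for macrophages and leukocytes, endothelium, and epithelium and mesothelium each summed to at most 27.3 FPKM. The smooth muscle and myofibroblast list reached 458 to 3604 FPKM at day 4 and 2316 to 7272 FPKM at day 7. The part of cell composition in the results was not tested.

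The early C/EBP factors stood far above the other members. CEBPD had a mean of 361 ± 116 FPKM (SD, 12 libraries) at day 4 and of 393 ± 156 FPKM (SD, 12 libraries) at day 7, which placed it at rank 160 of 19514 and 166 of 19847 genes with any read. CEBPB averaged 120 ± 62.8 FPKM at day 4 and 332 ± 126 FPKM at day 7. Together these 2 genes made up 88.1% to 96.1% of the summed FPKM of the 9 members in a library of day 4, and 93.4% to 98.4% at day 7. CEBPD is a gene of 1595 bases on chromosome 14 (19128179 to 19129773, plus strand) and CEBPB one of 1047 bases on chromosome 13 (78205757 to 78206803, plus strand), in the coordinates of the deposited tables, whose genome build is not given in the sources used here. CEBPD overlaps SPIDR on the opposite strand, which averaged 6.66 and 3.17 FPKM. With the strand setting not given, reads of the pair cannot be told apart where they overlap.

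The remaining members followed in an order that differed between the tables. At day 4 KLF4 averaged 18.2 ± 4.88 FPKM, EBF1 10.3 ± 4.72, GATA2 4.23 ± 1.29, KLF5 3.47 ± 2.39, KLF15 2.39 ± 0.956, EBF2 0.722 ± 0.483 and ZNF423 0.466 ± 0.385 (SD over 12 libraries). At day 7 KLF5 followed CEBPB, at 6.32 ± 4.01 FPKM, ahead of KLF4 (5.84 ± 2.90), EBF1 (5.49 ± 1.91), KLF15 (1.59 ± 0.873), GATA2 (1.38 ± 0.350), EBF2 (0.357 ± 0.327) and ZNF423 (0.113 ± 0.0560). Among neighbours in the day 4 order, the gap exceeded the sum of the 2 SDs for CEBPD over CEBPB, CEBPB over KLF4, EBF1 over GATA2 and KLF15 over EBF2. The steps from KLF4 to EBF1, from GATA2 through KLF5 to KLF15 and from EBF2 to ZNF423 did not exceed it. At day 7 it did for CEBPB over KLF5, EBF1 over KLF15 and GATA2 over EBF2, whereas CEBPD exceeded CEBPB in the libraries of only 2 of 3 cows.

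**Figure D1:**
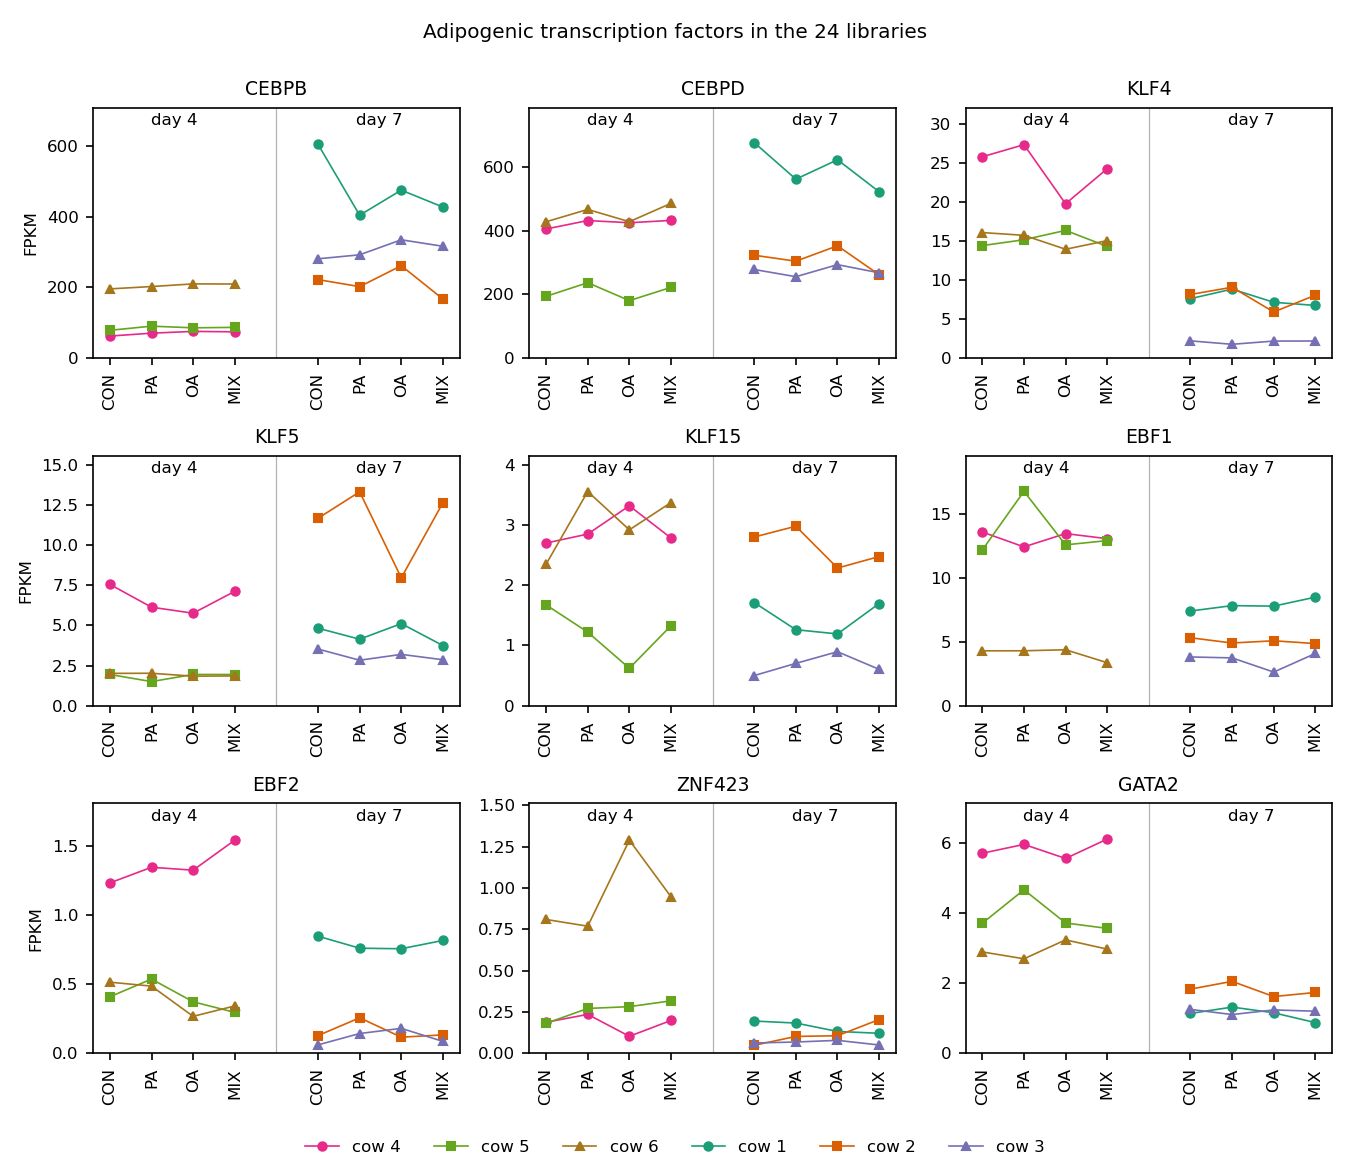
FPKM (y axis, linear, a scale of its own for each gene) of the 9 members in the 24 libraries, by treatment and day; each line joins the 4 libraries of 1 cow. Lines of different cows mostly run apart, as for EBF1 in cow 6 (3.36 to 4.37 FPKM) against cow 4 (12.4 to 13.6 FPKM), while the treatments within a line lie close together.

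The animal, rather than the fatty acid, accounted for most of the spread of each member. In a breakdown of the sum of squares of log2(FPKM + 1), the cow took 82.4% to 98.6% at day 4 in the 9 members, where the median over all genes with at least 1 FPKM in 3 libraries was 87.3%. The treatment took 0.785% to 3.93%, against a median of 3.15%. At day 7 the cow took 51.2% (ZNF423) to 96.9% (EBF2), against a median of 78.0%, and the treatment 0.255% to 6.35%, against 6.55%. ZNF423 at day 7 rested on 5 to 26 reads per library. In bulk cultures, fewer cells of a type and less RNA per cell cannot be told apart, and this holds for every difference between animals or treatments given here.

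**Figure D2:**
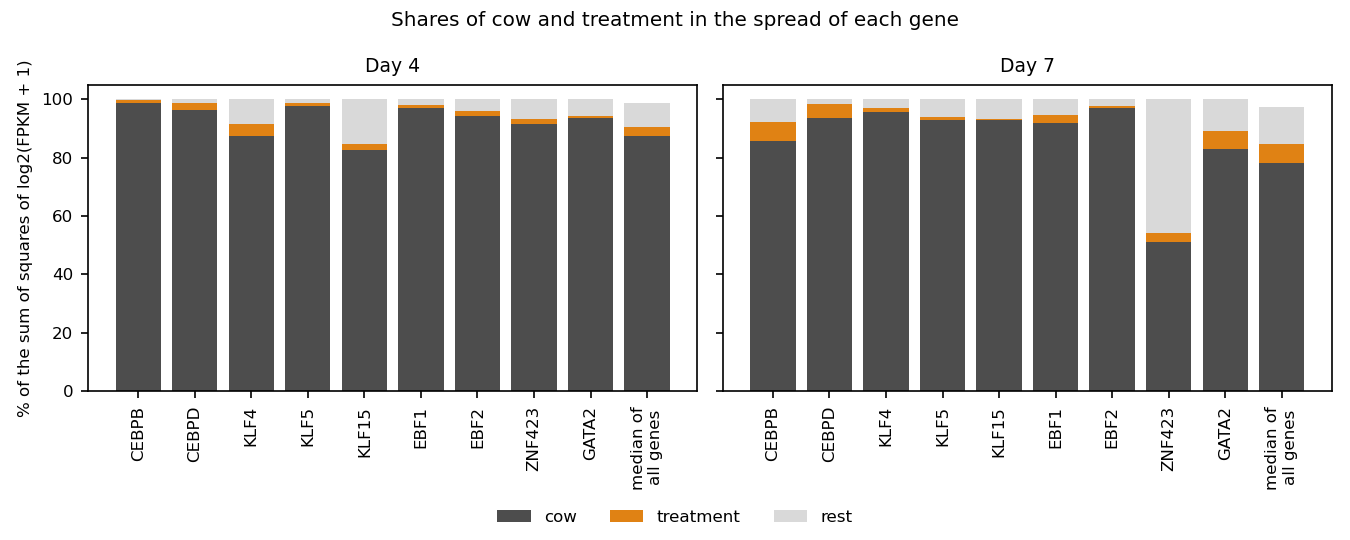
Share (% of the sum of squares of log2(FPKM + 1), y axis from 0) taken by cow, treatment and the rest for each member and, in the last bar, the separate medians of the 3 shares over all genes with at least 1 FPKM in 3 libraries, which need not add to 100%. The treatment share is at most 3.93% at day 4 and 6.35% at day 7, and the cow share is at least 82.4% for each member except ZNF423 at day 7.

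CEBPD, one of the 2 inducers of the cascade, had its lowest values of day 4 in cow 5. In cows 4, 5 and 6 it stood at 405, 194 and 428 FPKM in CON, at 432, 237 and 467 in PA, at 425, 181 and 428 in OA and at 432, 222 and 486 in MIX. PA and MIX were above CON in each cow, and OA was below PA in each, but the values of any pair of treatments overlapped because cow 5 lay far below the others. In cows 1, 2 and 3 at day 7 it stood at 677, 323 and 278 FPKM in CON, at 562, 304 and 256 in PA, at 623, 353 and 293 in OA and at 522, 262 and 268 in MIX. Here PA and MIX were below CON in each cow and OA was above PA in each, again with overlapping groups.

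CEBPB, the partner that forms dimers with CEBPD and later with CEBPA, was highest in cow 6 at day 4 and in cow 1 at day 7. In cows 4, 5 and 6 it stood at 62.4, 78.6 and 196 FPKM in CON, at 70.5, 90.4 and 202 in PA, at 75.5, 85.7 and 210 in OA and at 74.3, 86.9 and 210 in MIX. In each of the 3 cows the CON library was the lowest of the 4, as it was for 1.93% of 12841 genes; the fatty acid libraries of a cow share that CON library. In cows 1, 2 and 3 at day 7 it stood at 605, 222 and 281 FPKM in CON, at 404, 202 and 292 in PA, at 475, 261 and 335 in OA and at 427, 167 and 316 in MIX. The CON library of cow 1 was the highest of the 12, and cow 3 was higher with each fatty acid than without.

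The balance of these partners also varied between animals, although the ranges of cows 5 and 6 and of cows 1 and 2 overlapped. The ratio of CEBPB to CEBPD (FPKM over FPKM) lay between 0.154 and 0.178 in the 4 libraries of cow 4, between 0.382 and 0.475 in cow 5 and between 0.431 and 0.490 in cow 6. At day 7 it lay between 0.719 and 0.894 in cow 1, between 0.639 and 0.741 in cow 2 and between 1.01 and 1.18 in cow 3. CEBPB thus exceeded CEBPD in all 4 libraries of cow 3 and in no other library. Within each cow of day 4 the ratio was highest in OA (0.178, 0.475 and 0.490 in cows 4, 5 and 6). At day 7 it was highest in CON in cow 1, in OA in cow 2 and in MIX in cow 3. The ratio was not tested for animal or treatment.

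KLF4, a zinc finger activator that in mouse cells acts on the CEBPB promoter, was highest at day 4 in cow 4. In cows 4, 5 and 6 it stood at 25.8, 14.4 and 16.1 FPKM in CON, at 27.4, 15.2 and 15.8 in PA, at 19.8, 16.4 and 13.97 in OA and at 24.3, 14.3 and 15.1 in MIX. At day 7 cows 1, 2 and 3 gave 7.63, 8.17 and 2.21 FPKM in CON, 8.85, 9.10 and 1.77 in PA, 7.16, 5.92 and 2.19 in OA and 6.76, 8.08 and 2.19 in MIX. OA and MIX were below CON in all 3 cows of day 7, by little in cow 3, as were 14.5% and 12.4% of genes. MIX was also below CON in all 3 cows of day 4, as were 9.17% of genes. The groups overlapped on both days.

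KLF5, which in mouse cells is induced by CEBPB and CEBPD and acts on PPARG, stood out in 1 animal of each day. At day 4 cows 4, 5 and 6 gave 7.56, 1.95 and 2.01 FPKM in CON, 6.13, 1.501 and 2.02 in PA, 5.76, 1.95 and 1.84 in OA and 7.12, 1.94 and 1.85 in MIX. At day 7 cows 1, 2 and 3 gave 4.83, 11.7 and 3.53 FPKM in CON, 4.14, 13.3 and 2.83 in PA, 5.11, 7.96 and 3.20 in OA and 3.75, 12.6 and 2.86 in MIX. Cow 4 stood 3.62-fold over cow 5 and cow 2 stood 3.67-fold over cow 3 in the means of their 4 libraries.

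KLF15, a later factor that in mouse cells also raises the glucose transporter SLC2A4, was low in all groups. At day 4 cows 4, 5 and 6 gave 2.70, 1.67 and 2.35 FPKM in CON, 2.85, 1.22 and 3.55 in PA, 3.32, 0.621 and 2.92 in OA and 2.78, 1.33 and 3.37 in MIX. At day 7 cows 1, 2 and 3 gave 1.71, 2.80 and 0.500 FPKM in CON, 1.26, 2.98 and 0.702 in PA, 1.19, 2.28 and 0.896 in OA and 1.70, 2.48 and 0.603 in MIX. Cow 5 was lower with each fatty acid than in CON, and cows 4 and 6 were higher.

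EBF1, which drives adipogenesis through CEBPA and PPARG in mouse cells, separated cow 6 from the other day 4 animals. Cows 4, 5 and 6 gave 13.6, 12.2 and 4.29 FPKM in CON, 12.4, 16.8 and 4.29 in PA, 13.5, 12.6 and 4.37 in OA and 13.1, 12.9 and 3.36 in MIX. At day 7 cows 1, 2 and 3 gave 7.40, 5.31 and 3.81 FPKM in CON, 7.82, 4.90 and 3.74 in PA, 7.78, 5.07 and 2.63 in OA and 8.48, 4.86 and 4.08 in MIX. The order of the cows at day 7 was the same in all 4 treatments, and no treatment separated from CON.

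EBF2, a factor of the brown and beige lineage in mice, was near 1 FPKM in a single animal of each day. At day 4 cows 4, 5 and 6 gave 1.23, 0.408 and 0.514 FPKM in CON, 1.34, 0.536 and 0.485 in PA, 1.32, 0.372 and 0.267 in OA and 1.54, 0.296 and 0.342 in MIX. At day 7 cows 1, 2 and 3 gave 0.846, 0.128 and 0.0611 FPKM in CON, 0.759, 0.257 and 0.143 in PA, 0.755, 0.117 and 0.180 in OA and 0.815, 0.133 and 0.0859 in MIX. Cow 1 stood 6.76-fold over cow 3, although the lowest library of EBF2 held only 4 reads.

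ZNF423, a marker of committed pre-adipocytes in mice, had the lowest mean of the members on both days. At day 4 EBF2 was above ZNF423 in only 7 of 12 libraries, and in each library of cow 6 ZNF423 was above EBF2. At day 4 cows 4, 5 and 6 gave 0.188, 0.181 and 0.810 FPKM in CON, 0.236, 0.271 and 0.769 in PA, 0.103, 0.282 and 1.29 in OA and 0.199, 0.318 and 0.948 in MIX. All 12 libraries of day 7 lay between 0.0486 and 0.205 FPKM. Cow 6 stood 5.26-fold over cow 4 in the mean of its libraries, the largest ratio between animals of day 4 among the 9 members, on 9 to 99 reads per library. It overlaps 2 unnamed genes, which averaged at most 0.0108 FPKM.

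GATA2, the repressor of the list, lay between 2.70 and 6.11 FPKM at day 4 and between 0.876 and 2.05 FPKM in the separately normalised table of day 7. At day 4 cows 4, 5 and 6 gave 5.71, 3.71 and 2.89 FPKM in CON, 5.96, 4.67 and 2.70 in PA, 5.56, 3.72 and 3.24 in OA and 6.11, 3.57 and 2.97 in MIX. At day 7 cows 1, 2 and 3 gave 1.14, 1.83 and 1.25 FPKM in CON, 1.32, 2.05 and 1.11 in PA, 1.16, 1.62 and 1.24 in OA and 0.876, 1.74 and 1.20 in MIX. The 3 animals of day 4 did not overlap in GATA2, nor in CEBPB, and those of day 7 did not in CEBPB, KLF5, KLF15 and EBF1. The share of all genes whose animals did not overlap was not computed, so this separation cannot be read as particular to these members. Over all genes the cow took a median of 87.3% of the sum of squares at day 4 and 78.0% at day 7. MIX was below CON in GATA2 in all 3 cows of day 7, as in 12.4% of genes.

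The first comparison asked whether palmitic acid moved these factors. None of the 9 members passed the test at day 4, and none of the 7 that met the minimum of 1 FPKM in 3 libraries at day 7 did (EBF2 and ZNF423 did not meet it). In PA against CON at day 4, edgeR called 0% of 13580 genes, with or without cow as a block, at an adjusted p of 0.05. With the block, 1 member had an unadjusted p under 0.05, where 3.16% of all genes did; without the block 0 members did, against 0.11% of genes. That member was CEBPD, whose log2 difference was 0.16 ± 0.07 (SE; 95% interval 0.02 to 0.30; edgeR unadjusted p 0.0235, adjusted p 1.00), higher in 3 of 3 cows as were 12.5% of genes. The log2 differences of the 9 members ran from -0.24 (KLF5) to 0.19 (ZNF423), with a median of 0.12 against 0.00 over all genes tested, and their 95% intervals spanned -0.53 to 0.87.

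At day 7 limma called 0% of 12615 genes in PA against CON, with or without the block, and 4.28% had an unadjusted p under 0.05 with it (0.46% of genes and 0 members without it). CEBPD was again the 1 member among them, now in the other direction: -0.16 ± 0.07 (95% interval -0.314 to -0.003; unadjusted p 0.0470, adjusted p 0.998), lower in 3 of 3 cows as were 14.5% of genes. Without cow 1 the difference was -0.10. The 7 members tested ran from -0.22 (CEBPB) to 0.04 (GATA2), with a median of -0.02 and 95% intervals within -0.53 to 0.32.

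With oleic acid alone, CEBPB was above control in each cow at day 4, as it also was with palmitic acid and with the mixture. For CEBPB in PA against CON at day 4 the unadjusted p was 0.0694 (edgeR with the block), and OA was above PA in 2 of 3 cows. With oleic acid alone CEBPD differed from control in no common direction among the cows on either day. In OA against CON at day 4 edgeR called 0.0736% of genes with the block and 0% without, and no member was among them. CEBPB was the 1 member with an unadjusted p under 0.05 (5.2% of all genes; without the block 0.177% of genes and 0 members), with a log2 difference of 0.16 ± 0.07 (95% interval 0.01 to 0.30; edgeR adjusted p 0.915), higher in 3 of 3 cows as were 15.0% of genes. Its value was 0.10 without cow 4. The members ran from -0.23 (EBF2) to 0.35 (ZNF423), with intervals within -0.83 to 1.01. At day 7 limma called 0% of genes in OA against CON, and 0 of the 7 members tested had an unadjusted p under 0.05 in limma with the block, where 9.27% of genes did (0.539% and 0 members without the block). They ran from -0.18 (KLF5) to 0.05 (CEBPB), with intervals within -0.55 to 0.35.

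With the mixture, both inducers were above control in each cow at day 4, and CEBPD was below control in each cow at day 7. In MIX against CON at day 4 edgeR called 0% of genes in either fit, and 2 members had an unadjusted p under 0.05 with the block (3.48% of genes; 0.118% and 0 members without it). CEBPB differed by 0.15 ± 0.07 (95% interval 0.01 to 0.30; edgeR adjusted p 0.994) and CEBPD by 0.15 ± 0.07 (0.01 to 0.28; adjusted p 0.994), both higher in 3 of 3 cows, as were 13.2% of genes. At day 7 limma called 0% of genes in either fit and CEBPD was the 1 member with an unadjusted p under 0.05 with the block (3.41% of genes; 0.38% and 0 members without it). It differed by -0.24 ± 0.07 (95% interval -0.40 to -0.09; unadjusted p 0.00614, adjusted p 1.00) and was lower in 3 of 3 cows, as were 12.4% of genes. The 9 members of day 4 ran from -0.10 to 0.32 with intervals within -0.69 to 0.99, and the 7 of day 7 from -0.25 to 0.05 with intervals within -0.56 to 0.29.

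**Figure D3:**
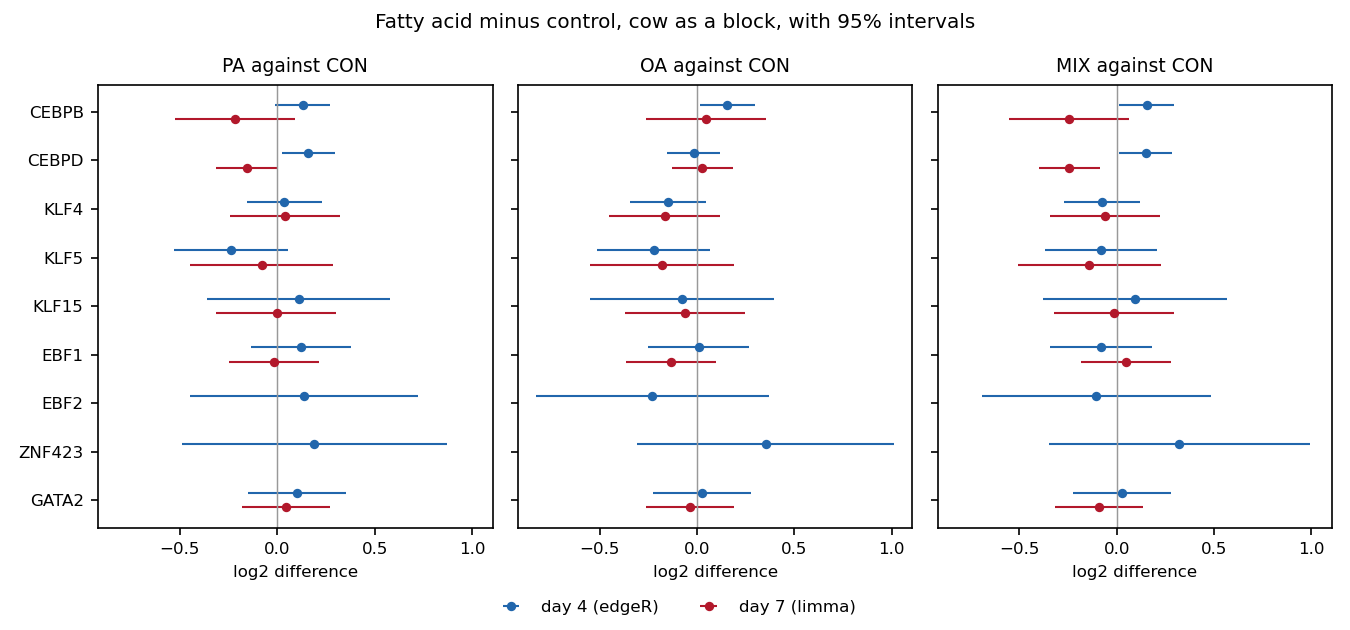
Log2 difference from CON (x axis) of each member in PA, OA and MIX at day 4 (edgeR) and day 7 (limma), from fits with cow as a block; bars are 95% intervals, and EBF2 and ZNF423 did not meet the minimum for this fit at day 7. CEBPD lies at 0.16 and 0.15 in PA and MIX at day 4 and at -0.16 and -0.24 at day 7, and none of the points passed the adjusted threshold.

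The saturated and the monounsaturated acid were then compared at the same 300 µM. In OA against PA at day 4 edgeR called 0.221% of genes with the block and 0% without, none of them a member. CEBPD was the 1 member with an unadjusted p under 0.05 with the block (6.94% of genes; 0.169% and 0 members without it). It was lower in OA by -0.18 ± 0.07 in log2 (95% interval -0.31 to -0.04; adjusted p 0.514), in 3 of 3 cows, as were 12.8% of genes. Cow 5 carried much of it, since the difference was -0.39 within that cow, and -0.08 when it was left out. Without cow 4 it was -0.26. At day 7 limma called 0% of genes, and CEBPD was higher in OA by 0.19 ± 0.07 (95% interval 0.03 to 0.34; unadjusted p 0.0239, adjusted p 0.377), where 11.5% of genes had an unadjusted p under 0.05 with the block (0.69% and 0 members without it). It was higher in 3 of 3 cows, by 0.15, 0.21 and 0.20 in cows 1, 2 and 3, a direction shown by 16.5% of genes. The intervals of all members in this comparison lay within -0.96 to 0.82 at day 4 and -0.49 to 0.57 at day 7, so a p that missed the threshold does not show that the acids acted alike.

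The mixture was also set against each acid alone. CEBPD was higher with the mixture than with oleic acid in each cow at day 4 and lower in each cow at day 7. In MIX against OA at day 4 edgeR called 0% of genes, and CEBPD was the 1 member with an unadjusted p under 0.05 with the block (2.97% of genes; 0.147% and 0 members without it), at 0.17 ± 0.07 (95% interval 0.03 to 0.30; adjusted p 1.00). It was higher in 3 of 3 cows, as were 13.8% of genes, though the value was 0.10 without cow 5 and 0.24 without cow 4. At day 7 limma called 0% of genes in MIX against OA, while 10.4% had an unadjusted p under 0.05 with the block (0.555% and 0 members without it). CEBPD differed by -0.27 ± 0.07 (95% interval -0.43 to -0.12; limma unadjusted p 0.00322, adjusted p 0.346), lower in 3 of 3 cows as were 15.4% of genes. CEBPB differed by -0.29 ± 0.14 (95% interval -0.60 to 0.02; limma adjusted p 0.497), also lower in 3 of 3 cows, but by -0.12 without cow 2. In MIX against PA 0% of genes were called on either day, and 0 members had an unadjusted p under 0.05, where 3.26% of genes at day 4 and 3.92% at day 7 did with the block, and 0.118% and 0.491% without it. Members lay within intervals of -0.82 to 0.80 at day 4 and -0.43 to 0.31 at day 7 in that comparison.

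Across the 6 comparisons of a day, 10 of 96 member comparisons had an unadjusted p under 0.05 with the block and 0 without it. The share of all genes that did was 2.97% to 11.5% per comparison with the block and 0.11% to 0.69% without it. All 10 were of CEBPB or CEBPD, in comparisons that share libraries. At day 4 these 2 genes also had the smallest SE (0.07, against 0.09 to 0.33 for the other members). The groups of FPKM overlapped in all 108 member comparisons, while 0.927% to 1.25% of genes at day 4 and 1.66% to 2.73% at day 7 had groups that did not. DESeq2 and limma on the day 4 values also called 0 members, with 0 to 2 per comparison at an unadjusted p under 0.05 with the block and 0 without. Of all genes, 1.93% to 5.36% per comparison reached that p with the block in DESeq2 and 3.48% to 7.19% in limma, and 0.14% to 0.35% without it in either tool. With the block DESeq2 called 0% to 0.361% and limma 0% to 0.0234% of all genes per comparison, and without it both called 0%. At day 7 edgeR on reads recovered from FPKM called 0 of the 9 members, with 0 to 3 per comparison at an unadjusted p under 0.05 with the block (3.14% to 11.2% of genes) and 0 without (0.212% to 0.432%). That tool called 0% to 0.0586% of all genes per comparison with the block and 0% without. In the authors' deposited table for day 4, the headers name the groups compared PA, OA, MIX and Basal, and Basal was taken as CON. There the log2 fold change of CEBPD was -0.14 for Basal against PA and -0.15 for Basal against MIX, both with an adjusted p of 1.

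The difference between days was tested directly for 7 members, as the day 7 contrast minus the day 4 contrast. Only CEBPD and CEBPB exceeded 2 standard errors, and limma called 0% of 12132 genes in each of the 6 contrasts with or without the block. For CEBPD the difference was -0.33 ± 0.10 in PA against CON (unadjusted p 0.00418, limma adjusted p 0.999) and -0.40 ± 0.10 in MIX against CON (8.39e-04, adjusted p 0.979). The tests of OA against PA, MIX against PA and MIX against OA were added after the data had been seen. For CEBPD, OA against PA gave 0.37 ± 0.10 (0.00177, limma adjusted p 0.500) and MIX against OA gave -0.44 ± 0.10 (3.60e-04, adjusted p 0.674). In the 4 contrasts given here with a value for CEBPD, an unadjusted p under 0.05 was reached by 4.64%, 4.44%, 6.91% and 6.06% of genes with the block. Without the block 0.19%, 0.181%, 0.239% and 0.181% of genes and 0 members reached it. CEBPB differed by -0.36 ± 0.16 in PA against CON (limma adjusted p 0.999; -0.18 without cow 1) and by -0.41 ± 0.16 in MIX against CON (limma adjusted p 0.979; -0.62 without cow 3). OA against CON and MIX against PA gave 0 members with an unadjusted p under 0.05, where 5.49% and 4.01% of genes did with the block, and 0.173% and 0.223% without it.

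In 4 of the 6 contrasts CEBPD differed one way within all 3 cows of day 4 and the other way within all 3 cows of day 7, on the log2(FPKM + 1) scale. This held for PA against CON, MIX against CON, OA against PA and MIX against OA, where 3.66%, 3.62%, 2.55% and 3.73% of 12132 genes did so in either direction. These contrasts share libraries and are not separate observations. No other member showed it in any of the 6. In PA against CON the differences within cows 4, 5 and 6 were 0.09, 0.29 and 0.12, and within cows 1, 2 and 3 they were -0.27, -0.09 and -0.12. In MIX against CON they were 0.09, 0.19 and 0.18, then -0.37, -0.30 and -0.06. Depth also differed at day 7, where the CON libraries held 19358115 to 24008811 reads and the PA libraries 14118798 to 19859107. In cows 1 and 2 the PA and MIX libraries were shallower than CON. In cow 3 both were deeper, at 19859107 and 23784643 reads against 19358115. The part of depth in the result was not tested.

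**Figure D4:**
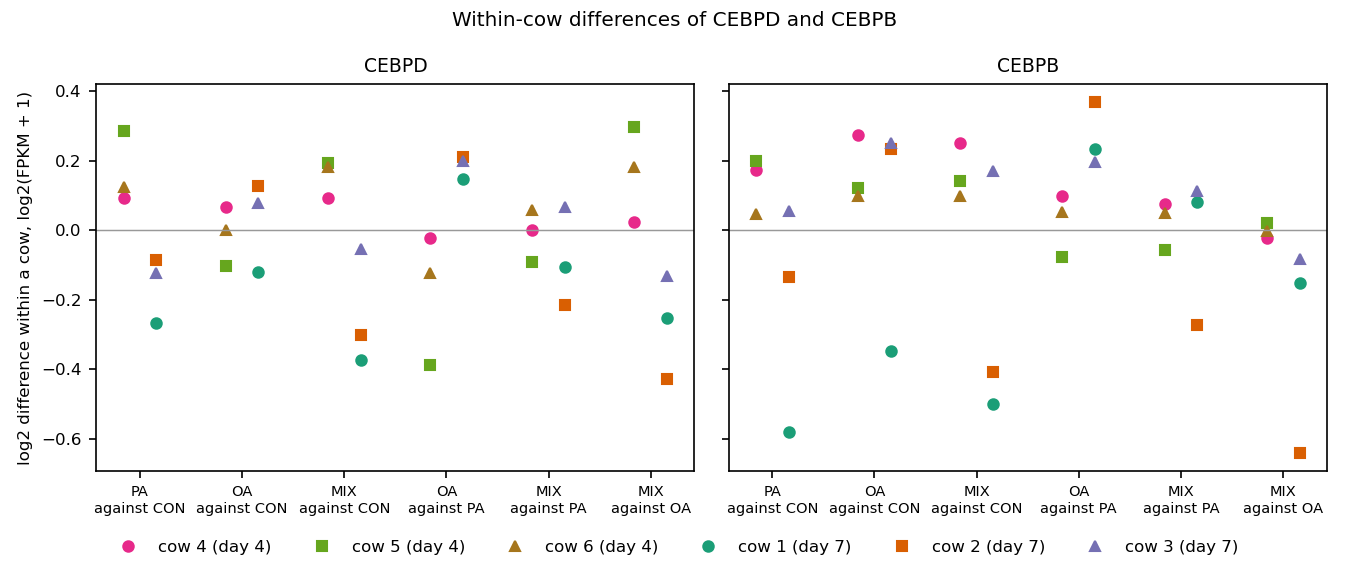
Within-cow differences in log2(FPKM + 1) (y axis) of CEBPD and CEBPB for the 6 comparisons (x axis), 1 point per cow, with day 4 cows to the left and day 7 cows to the right of each position. For CEBPD the 3 day 4 points lie above 0 and the 3 day 7 points below 0 in PA against CON, MIX against CON and MIX against OA, and the reverse holds in OA against PA; CEBPB mixes signs at day 7 in comparisons with CON.

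Around the members, PPARG, the master regulator that the inducers act on, averaged 2.91 ± 1.74 FPKM in CON, 3.66 ± 2.35 in PA, 3.07 ± 1.72 in OA and 2.66 ± 1.57 in MIX at day 4 (SD, n = 3). Its log2 difference in PA against CON was 0.30 ± 0.13 (edgeR with the block, adjusted p 1.00). At day 7 its group means were 0.176 to 0.282 FPKM, below the minimum for testing. Among 22 further activators of adipogenesis, PPARG included, 0 of the 21 tested at day 4 and 0 of the 17 tested at day 7 passed in PA, OA or MIX against CON (edgeR and limma with the block). At an unadjusted p under 0.05 were 4, 2 and 0 of them at day 4, against 3.16%, 5.2% and 3.48% of all genes, and 0, 2 and 1 at day 7, against 4.28%, 9.27% and 3.41%. The activators with the smallest p at day 4 were STAT5B in OA (-0.21 ± 0.08; edgeR adjusted p 0.755), PPARGC1A in PA (0.53 ± 0.20; 1.00) and KLF9 in PA (0.23 ± 0.10; 1.00). At day 7 they were SREBF1, NR1H3 and KLF9, all in OA, of which SREBF1, the regulator of lipid synthesis, differed most (35.5 ± 1.35 against 47.9 ± 7.92 FPKM; -0.41 ± 0.09; limma adjusted p 0.424).

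Of 24 repressors of adipogenesis, 21 were tested on each day and 0 passed; 3, 3 and 2 had an unadjusted p under 0.05 in PA, OA and MIX against CON at day 4 (edgeR with the block) and 3, 3 and 0 at day 7 (limma with the block). The shares of all genes were the ones just given for the activators. CREM in PA (0.45 ± 0.13; edgeR adjusted p 1.00), WISP2 in OA (-0.61 ± 0.24; 0.856) and TCF7L2 in PA (0.19 ± 0.08; 1.00) had the smallest p at day 4. FOXO1 in OA (-0.29 ± 0.06; limma adjusted p 0.424), WISP2 in PA (-0.22 ± 0.07; 0.998) and TCF7L2 in OA (-0.19 ± 0.07; 0.462) had them at day 7. The medians of this list in PA, OA and MIX against CON were 0.03, -0.07 and -0.05 at day 4 and -0.10, -0.06 and -0.05 at day 7, with medians over all genes of -0.01 to 0.01.

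Among 22 adipocyte genes downstream of CEBPA and PPARG, CD36, the fatty acid translocase, rose in OA at day 4. It was the only call against CON among the 4 lists, and was not a call without the block; over all genes 0.0736% were called with the block and 0% without. Of this list, 16 genes were tested at day 4 and 12 at day 7. In PA, OA and MIX against CON, 12, 10 and 8 were higher at day 4, with medians of 0.044, 0.047 and -0.007. The numbers at day 7 were 4, 6 and 3, with medians of -0.077, -0.043 and -0.085. An unadjusted p under 0.05 was reached by 1, 2 and 2 at day 4, and by 0, 2 and 1 at day 7. The shares of all genes are those given for the activators. CD36 stood at 4.96 ± 2.42 FPKM in OA and 3.09 ± 2.11 in CON at day 4 (SD, n = 3), a log2 difference of 0.77 ± 0.14 (edgeR with the block, adjusted p 0.0166). At that comparison the members of the inducer pair lay at most 0.16 from control. SLC2A4, the insulin-responsive glucose transporter, differed by -0.47 ± 0.11 in MIX at day 7 (limma adjusted p 1.00), and FABP4, the fatty acid carrier, by 0.28 ± 0.11 in OA at day 4 (edgeR adjusted p 0.866). PNPLA2 differed by 0.26 ± 0.12 in MIX at day 4 (edgeR adjusted p 0.994). In OA at day 7, RBP4 differed by 0.19 ± 0.07 (limma adjusted p 0.473) and SCD by -0.68 ± 0.29 (limma adjusted p 0.521).

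The 19 genes that respond to glucocorticoid or cyclic AMP, the 2 signals that induce CEBPD and CEBPB, were all tested, and 0 passed in PA, OA or MIX against CON or in OA against PA (edgeR and limma with the block). At day 4, 15 of the 19 were higher in PA, 10 in OA and 9 in MIX than in CON, with medians of 0.08, 0.04 and -0.01; 5, 6 and 3 had an unadjusted p under 0.05, against 3.16%, 5.2% and 3.48% of all genes. At day 7, 4, 12 and 4 were higher, with medians of -0.08, 0.06 and -0.10; 1, 5 and 1 had an unadjusted p under 0.05, against 4.28%, 9.27% and 3.41% of all genes. CEBPD was higher in 3 of 3 cows in both PA and MIX at day 4, and lower in 3 of 3 cows in both at day 7. The signs of a gene over cows and of a list over genes are unlike measures, and a link between them was not tested. In OA against PA 4 of 19 were higher at day 4 (median -0.09, 8 at an unadjusted p under 0.05, against 6.94% of all genes) and 14 of 19 at day 7 (median 0.13, 5 at an unadjusted p under 0.05, against 11.5%). In the other lists at day 4, 4 of 21 repressors were higher in OA than in PA (median -0.11, 9 at an unadjusted p under 0.05), as were 6 of 21 activators (median -0.08, 4 at an unadjusted p under 0.05) and 8 of 16 adipocyte genes (median 0.03, 3 at an unadjusted p under 0.05). At day 7 the numbers higher in OA were 11 of 21 repressors, 9 of 17 activators and 7 of 12 adipocyte genes. Medians over all genes in these comparisons lay between -0.01 and 0.01, and the comparisons share libraries. ANGPTL4 in MIX (0.42 ± 0.08; edgeR adjusted p 0.1498) and JUNB in OA (0.30 ± 0.07; 0.254) had the smallest p at day 4, followed by CREM in PA, which is also on the list of repressors.

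Members were also set beside all genes of at least 5 FPKM on each day, as a description. Over the 24 libraries, on log2(FPKM + 1) centred within each day, CEBPD ran closest to TOR4A and NGRN (Pearson r = 0.97 for both) and CEBPB to GYS1 and ANPEP (0.96 for both) among 7412 genes. KLF4 ran closest to HSPA1A (0.95) and INPP5K (0.94), KLF5 to LHFPL6 (0.94) and DBNDD2 (0.93), KLF15 to ATP6V1B2 and SLC38A5 (0.92 for both), EBF1 to CNOT6 and SLC38A1 (0.96 for both) and GATA2 to ATMIN (0.95) and HOXD8 (0.92). Among the members themselves, r was 0.83 between KLF5 and GATA2, 0.74 between KLF4 and KLF5, 0.58 between CEBPB and CEBPD and -0.82 between CEBPB and GATA2. The 24 libraries come from 6 animals, 4 each, so these values follow mainly the ranking of 3 cows within each day.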

How the data were processed

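RNA-seq was analysed in 24 libraries, 3 cows in each of 8 groups. The submitters' processing notes name featureCounts 1.5.0-p3, StringTie 1.3.3b and FastQC 0.11. The aligner, genome build and strand setting were not given in the sources used here. In the day 4 table the authors deposited a raw count and an FPKM per gene and library, with their log2 fold changes, p-values and adjusted p-values for 6 comparisons. For day 7 the authors deposited FPKM alone, and per the file headers both tables list gene lengths in bases. FPKM and length gave back whole reads for day 7 (100% of values within 0.01), which served for day 7 depths and read numbers and in an alternative test.

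Day 4 counts were tested with edgeR 4.0.16 (quasi-likelihood, filterByExpr, TMM, 13580 genes) and day 7 with limma 3.58.1 on log2(FPKM + 1), for genes with at least 1 FPKM in 3 libraries (12615 genes). Contrasts of day 7 minus day 4 used limma and 12132 genes of the 24 libraries. All tests were two-sided with Benjamini-Hochberg adjustment over all genes tested and a threshold of 0.05; a log2 difference is that of the group named first over the other. The fits were made without and with cow as a block, because a cow number names 1 animal in the 4 groups of its day. This was checked: deviations from group means correlated across genes at r = 0.71 to 0.92 for same-cow pairs of day 4 and 0.77 to 0.86 of day 7, while pairs from different cows reached 0.14 and -0.31 at most. Deviations from a mean of 3 cows cancel within a group, which pushes the pairs from different cows below 0. The low values of those pairs are therefore no separate support. For single genes, log2 differences, SE and 95% intervals, and list counts and medians, are from the fit with the block. DESeq2 1.42.0 in R 4.3.3 and other alternatives are given in the closing section.

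With 0 reads, a gene's level could still be up to 0.222 CPM (day 4) or 0.213 CPM (day 7), from 3 counts in the shallowest library; this covers counting error only. All members had reads in every library. The members and lists were chosen with earlier results of these data known. Levels of all members were to be named, and log2 differences of single members where they exceeded 2 SE in the fit with the block or passed the threshold, with ends of ranges named beside them. PPARG, up to 3 genes of each list and day with the smallest p, and the 2 genes most like each member were added. Sequences were not used here.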

Additional observations from a re-analysis of the deposited data

Results flagged for a closer look

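CEBPD differed in direction between the days in 4 contrasts: within all 3 cows of day 4 it differed one way, and within all 3 cows of day 7 the other way. The day 7 contrast minus the day 4 contrast was -0.325 in PA against CON, -0.399 in MIX against CON, 0.365 in OA against PA and -0.439 in MIX against OA, each with an SE of 0.097 from the fit with cow as a block, on the log2(FPKM + 1) scale. The difference was tested with limma and did not pass in any of them (adjusted p 0.500 to 0.999 with cow as a block). The contrasts share libraries, and the day cannot be told apart from the animals, the timing of exposure or the table.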

How the results depend on the processing

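No member was called in any of the 46 settings fitted, across tools (edgeR, DESeq2, limma), size factors, filters (none, 50 counts, 5 FPKM), pseudocounts (1, 0.1), left-out cows and with or without the replicate block; the smallest adjusted p was 0.108, for CEBPD in OA against PA at day 4 without cow 6 and with the block. With the replicate block the count of members called was 0 in all 18 comparisons, as without it, and the block changed no call of a member. The 17 log2 differences of CEBPB and CEBPD kept their direction in all 243 recomputed values. They were named because they exceeded 2 SE in these same data, so a kept direction was close to fixed in advance and is no added support. The largest ratio to the value given was 2.50, for CEBPB in MIX against OA at day 7 (-0.40 to -0.12 over left-out cows), and the widest range was that of CEBPB in MIX against CON between days (-0.62 to -0.28). Levels at day 4 moved by 1.21% to 2.10% with TMM library sizes. With 3 cows a group, the 95% interval of EBF2 in OA against CON at day 4 ran from -0.83 to 0.37 and that of ZNF423 from -0.31 to 1.01. Smaller changes of these members, on 9 to 99 reads per library for ZNF423, were not detectable. At day 7 both missed the filter of 1 FPKM in 3 libraries; without the filter and on recovered reads they were tested, and their smallest adjusted p was 0.867 (EBF2, limma without the filter, with the block).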
